A study of Saccharomyces cerevisiae with 12 samples.

Results

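The mitochondrial ribosomal protein genes of budding yeast, Saccharomyces cerevisiae, were taken as every gene whose symbol begins with MRP, MRPL, MRPS, RSM or IMG followed by a number. The rule found 68 of the 5449 genes on the array, each read by 1 probe set. Of these, 39 encode proteins of the large subunit and 27 encode proteins of the small subunit. The other 2 members are RSM22, which encodes a methyltransferase-like assembly factor, and MRP8, which was named from its sequence and is not a ribosomal protein. Total RNA was measured on 12 Affymetrix arrays in 4 groups of 3 biological samples. The groups were the gcn5 mutant with Congo Red, the untreated gcn5 mutant, wild type with Congo Red and untreated wild type, all in the BY4741 background and grown in the rich medium YPD. GCN5 encodes a histone acetyltransferase, the catalytic subunit of SAGA and ADA, and Congo Red is a dye that binds chitin and disturbs the cell wall. In each strain a growing culture was split, and 1 portion was grown with Congo Red (30 µg/ml, 3 h) before both were harvested.

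Mitochondrial ribosomes are a separate set of ribosomes inside mitochondria, descended from those of bacteria. In yeast they translate the few messages of mitochondrial DNA, which encode core subunits of the respiratory chain and of the ATP synthase and 1 protein of the small subunit itself. Nearly all of their proteins are encoded in the nucleus and imported, and their loss leaves yeast unable to respire and often without intact mitochondrial DNA. Names of the proteins follow their ancestry. Among the 66 ribosomal members, 27 belong to families found in all ribosomes, such as MRPS12 (protein uS12m, of the decoding region), and 14 to families shared with bacteria only, such as IMG1 (bL19m). The other 25 belong to families added in mitochondria, such as MRPL31 (mL60) and RSM26 (mS42).

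GCN5 served as the check of the strain labels. Its log2 level was 3.61, 3.02 and 3.55 in the mutant with Congo Red and 3.72, 4.08 and 3.36 in the untreated mutant, against 8.26, 8.30 and 8.20 in wild type with Congo Red and 8.13, 8.32 and 8.33 in untreated wild type. The 6 mutant arrays were far under the wild type range. Array medians over all probe sets lay between 8.98 and 9.05. The mutant arrays numbered 3 stood apart from the others of their groups. Their correlation over all genes with arrays 1 and 2 of the same group was 0.965 to 0.974. Arrays 1 and 2 of a group correlated at 0.990 to 0.994 in all 4 groups. In wild type array 3 was also the less similar one, at 0.981 to 0.987 with arrays 1 and 2. The limma counts past the threshold and the medians of the members between the strains are therefore also given without both mutant arrays numbered 3. That choice rests on their values. It leaves 2 arrays in each mutant group and takes outlying values out of the spread, a limit on any call gained there. The 7 a-cell markers averaged 8.57 to 9.27 in the mutant with Congo Red and 8.36 to 9.42 in the untreated mutant, against 10.15 to 11.50 in wild type with Congo Red and 10.25 to 11.52 in untreated wild type, with the lowest value of each group on array 3. Of these markers 4 were lower in the untreated mutant (MFA1, BAR1, STE6 and STE2), 3 were lower in Congo Red (MFA1, BAR1 and STE6) and 0 were higher (limma). Of all genes tested 4.92% were lower and 4.9% higher untreated, and 6.4% lower and 4.57% higher in Congo Red. The calls of STE6 were lost without any of 3 single arrays in each comparison and that of STE2 without any of 10. The 4 alpha-cell markers averaged 5.36 to 5.78 over the 12 arrays. Their alpha-pheromone gene MF(ALPHA)1 stayed between 3.42 and 3.90, MF(ALPHA)2 between 4.65 and 5.81, the receptor gene STE3 between 4.81 and 5.53, and the agglutinin gene SAG1 higher, between 7.92 and 8.45. The 5 markers of sporulating diploids averaged 6.04 to 6.24 in the mutant with Congo Red and 5.96 to 5.97 in the untreated mutant, against 5.99 to 6.46 in wild type with Congo Red and 5.57 to 5.76 in untreated wild type. Among them NDT80 was higher in the mutant, untreated (1.07, limma adjusted p = 0.00172) and in Congo Red (0.79, adjusted p = 0.00653). IME2 and SPO11 were higher with Congo Red in wild type (0.71 and 1.42, limma adjusted p = 0.0385 and 0.0403) and IME2 in the mutant (0.91, adjusted p = 0.048), calls lost without any of 8, 9 and 10 single arrays. The part of these markers in the results below was not tested.

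The clearest pattern in the members was a joint drop on both mutant arrays numbered 3. By their number these were read as the treated and untreated portions of 1 divided culture. Their deviations from the group means correlated at 0.795 over all genes. The drop was thus seen in 1 mutant culture, and its 2 arrays are not independent observations. The median level of the 68 members was 9.70, 9.55 and 9.08 on arrays 1, 2 and 3 of the mutant with Congo Red and 9.69, 9.57 and 9.08 on those of the untreated mutant. In wild type it was 9.70, 9.59 and 9.55 with Congo Red and 9.73, 9.72 and 9.60 untreated. Thus 10 arrays fell between 9.55 and 9.73, and both mutant arrays numbered 3 fell below them. Set against the mean of untreated wild type gene by gene, the median member was lower by 0.59 and 0.57 log2 units on these 2 arrays (-0.59 with Congo Red and -0.57 untreated), and between -0.16 and 0.07 on the other 10. The normalization gives all arrays nearly the same distribution of levels, so the drop is relative to the other genes of the same array, and a shift of all transcripts could not be seen.

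**Figure D1:**
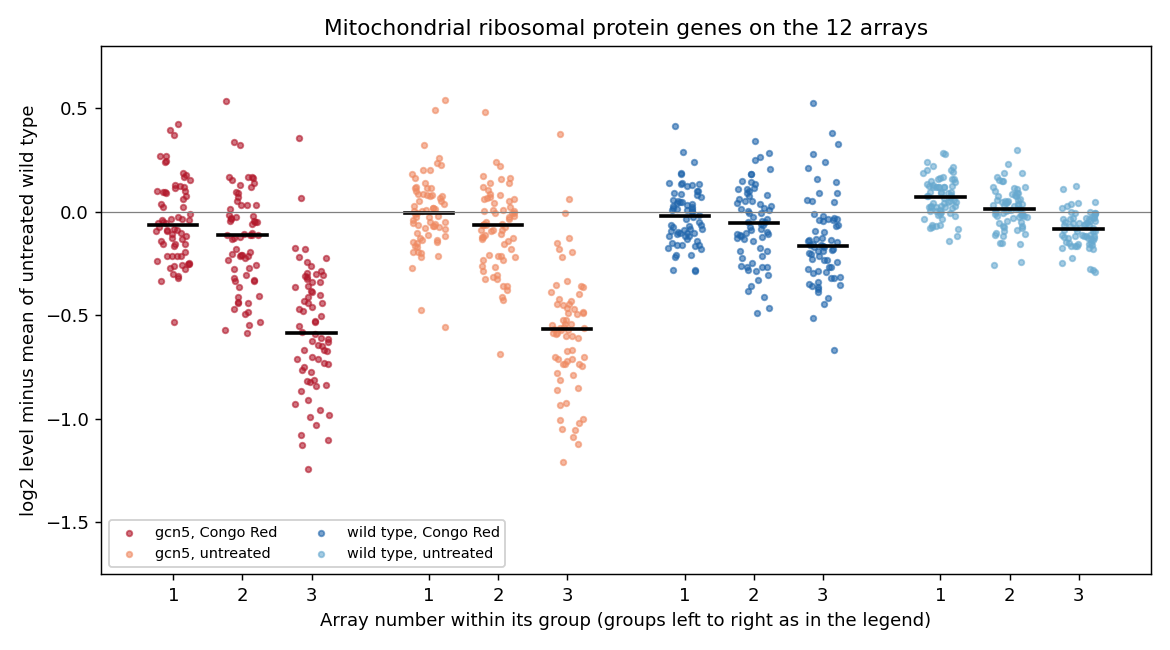
Log2 level of each of the 68 members on each of the 12 arrays minus its mean in untreated wild type (vertical axis), with the arrays in 4 groups of 3 along the horizontal axis. Points are genes and black bars are medians over the members: the bars of both mutant arrays numbered 3 sit at -0.59 and -0.57, and those of the other 10 arrays between -0.16 and 0.07.

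Nearly every member took part. In the mutant with Congo Red, 65 of 68 members (95.6%) had their lowest value of the group on array 3, against 31.3% of all genes tested. In the untreated mutant it was 67 of 68 (98.5%), against 39.6% of all genes. For 60 members (88.2%) both arrays lay below each of the other 10, which held for 10% of all genes. The median difference of array 3 from the mean of arrays 1 and 2 was -0.48 in the mutant with Congo Red and -0.52 in the untreated mutant, with -0.10 and -0.12 in the corresponding wild type groups. Both subunits took part alike, at -0.48 (large) and -0.48 (small) in Congo Red and -0.50 (large) and -0.58 (small) untreated. The 3 ancestries were similar too, with untreated medians of -0.52 for the families of all ribosomes, -0.53 for the bacterial families and -0.58 for the mitochondrial families.

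The size of the drop differed among members. MRPL50 (bL9m of the large subunit) had log2 levels of 10.09, 9.99 and 9.21 in the mutant with Congo Red and 10.17, 10.04 and 9.19 in the untreated mutant, so array 3 was lower than the mean of arrays 1 and 2 by 0.83 and 0.92 units (-0.83 and -0.92). MRPS8 (uS8m of the small subunit) was at 9.59, 9.22 and 8.63 in the mutant with Congo Red and at 9.67, 9.40 and 8.65 in the untreated mutant. In each of these 4 sets the value of array 3 was the outlying one. MRPS12 had a smaller difference, with 10.79, 10.82 and 10.57 in the mutant with Congo Red and 10.83, 10.86 and 10.57 untreated. MRPL28 (mL40) was 0.13 units lower on the untreated array (-0.13) and 0.40 units lower on the Congo Red array (-0.40). The 3 members that were not lowest on both arrays were MRP8, RSM22 and MRPL37 (mL54), and the first pair are the members that are no ribosomal proteins. MRP8 was higher on both, by 0.10 units with Congo Red and by 0.26 untreated, and RSM22 was lower by 0.18 and 0.50 units (-0.18 and -0.50).

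Several other groups of mitochondrial genes were also low on these arrays, to differing extents. All 10 mitochondrial ribosomal protein genes that carry other symbols, among them NAM9 (uS4m), MNP1 (bL12m) and RML2 (uL2m), had their lowest value on both. MNP1 was at 10.09, 10.15 and 9.51 in the mutant with Congo Red and at 10.22, 10.18 and 9.56 in the untreated mutant. The same held for 33 of 37 nuclear genes of the respiratory chain, whose median difference was -0.89 with Congo Red and -1.10 untreated. It held for 9 of 13 mitochondrial tRNA synthetase genes, 6 of 11 mitochondrial translation factor genes, 10 of 20 translational activator genes and 4 of 10 genes of ribosome assembly and rRNA modification. It held for 3 of 11 genes of mitochondrial DNA and RNA upkeep (27.3%), near the 22.2% of all genes. By contrast it held for 36 of 127 cytosolic ribosomal protein genes, with median differences of -0.08 and -0.03, and for 7 of 54 genes of cytosolic ribosome biogenesis. In wild type, respiratory chain genes were lower on array 3 as well, by a median of -0.34 with Congo Red and -0.52 untreated, where the members differed by -0.10 and -0.12. The a-cell markers were lowest on array 3 in 6 of 7 cases in the mutant with Congo Red and in 7 of 7 in each of the other 3 groups. Fewer cells of a kind and less RNA per cell cannot be told apart in such bulk RNA, and what set these 2 arrays apart was not tested.

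**Figure D2:**
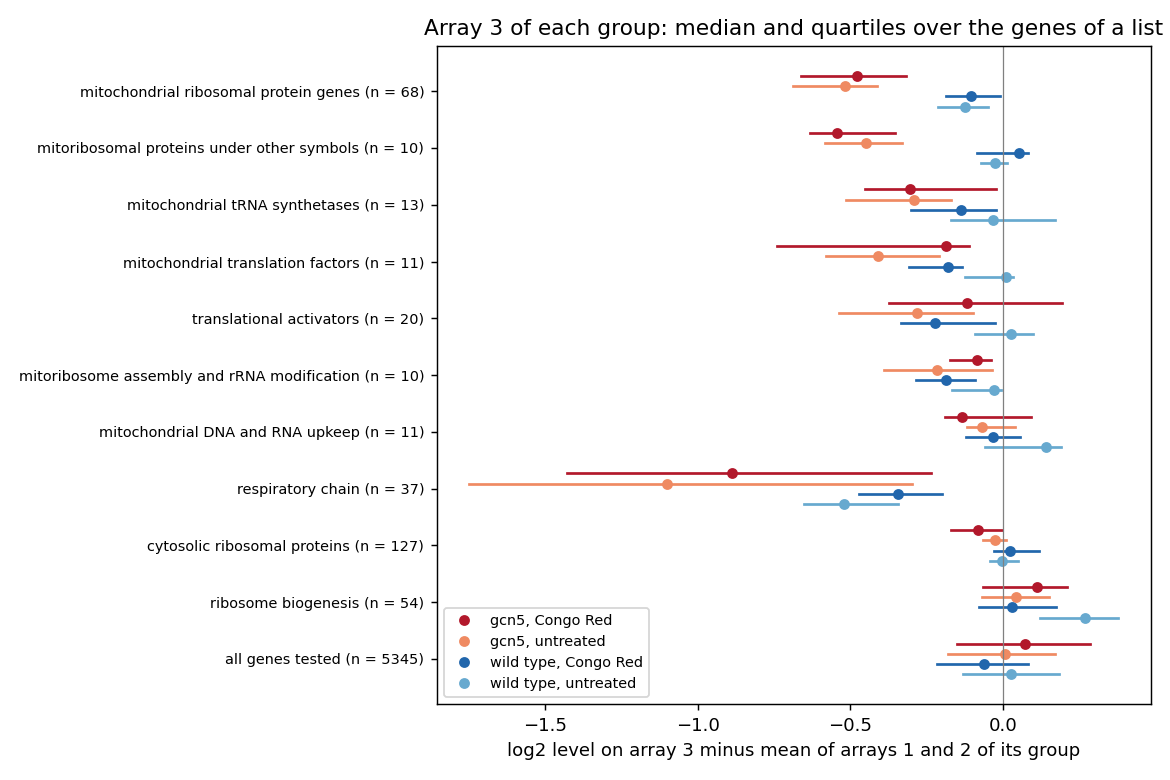
Median (points) and quartiles (lines) over the genes of each list of the log2 level on array 3 minus the mean of arrays 1 and 2 (horizontal axis), for the 4 groups of each list. The mitochondrial ribosomal protein genes sit at -0.48 and -0.52 in the mutant groups and near -0.1 in wild type, while cytosolic ribosomal proteins and all genes sit near 0 in all 4 groups.

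Because of these arrays the spread of the members was wider in the mutant. The median SD over 3 arrays was 0.30 in the mutant with Congo Red and 0.32 in the untreated mutant, against 0.12 in wild type with Congo Red and 0.12 in untreated wild type. Levels of the members' probe sets averaged between 8.09 (RSM22) and 11.61 (MRP8) over the 12 arrays, so all 68 passed the filter on dim genes and entered the tests. Probe sets differ in how strongly they bind, and levels are compared here only within a gene. The group means that differed most were those of MRPL31, RSM19, MRPL44, MRPL20 and MRPL17.

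**Figure D3:**
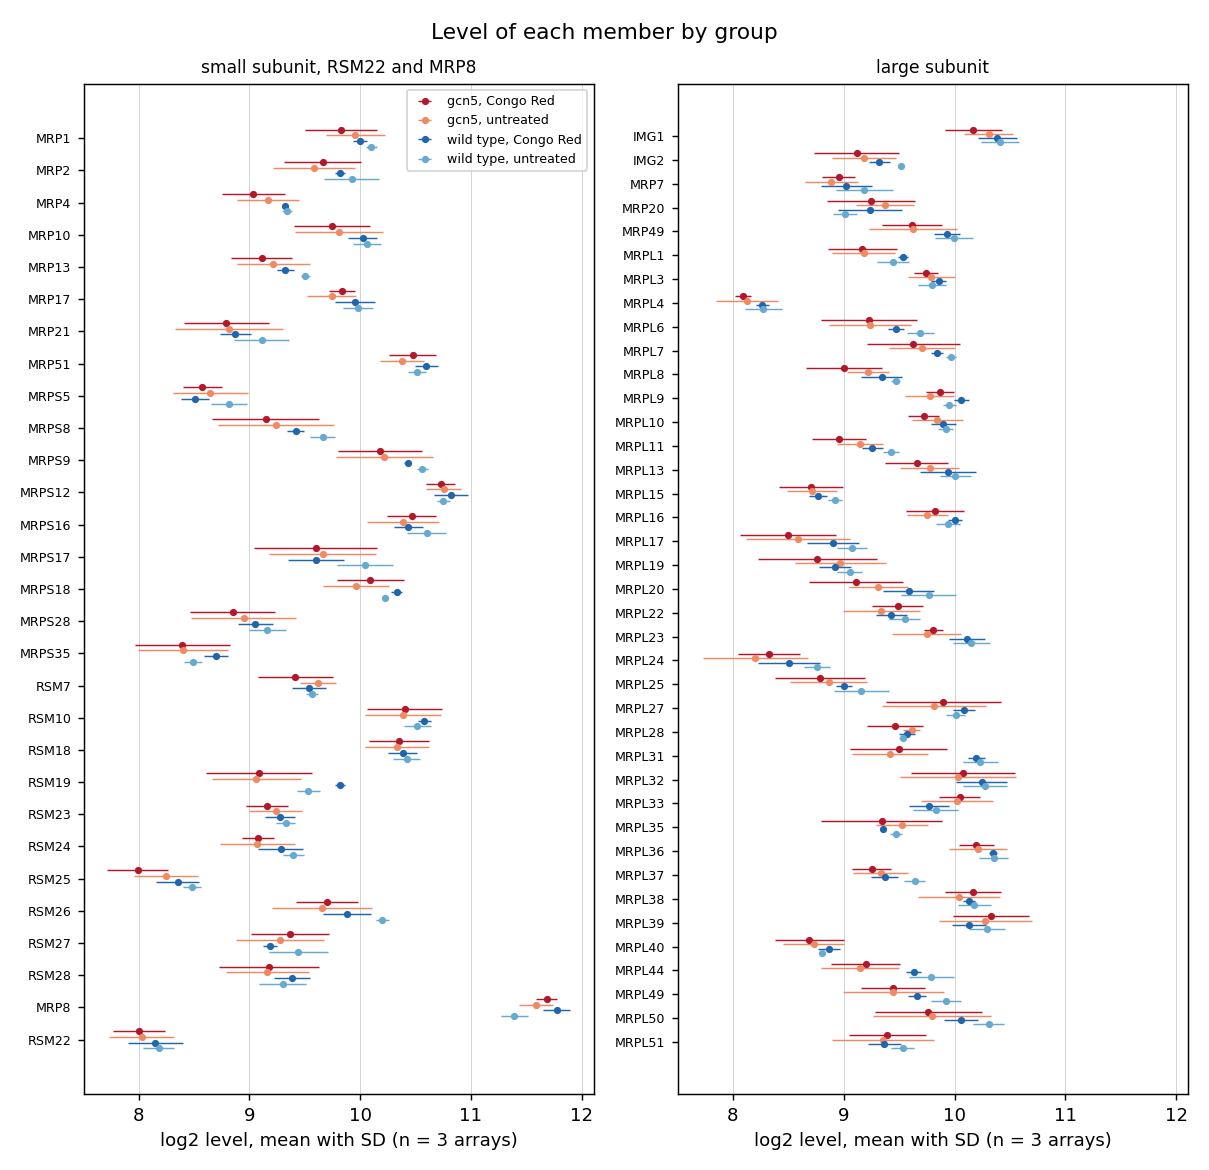
Mean log2 level with SD (n = 3 arrays) of each member in the 4 groups, with the small subunit, RSM22 and MRP8 in the left panel and the large subunit in the right. The bars of both mutant groups are the longer ones for most members, and MRPL31, MRPL44 and RSM19 show the widest gaps between the mutant and wild type means.

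The untreated strains were compared to find what loss of Gcn5 did to these genes in growing cells. MRPL31 was the member that fell past the threshold, and most others sat slightly below wild type. MRPL31 (YKL138C) encodes mL60, a large subunit protein added in mitochondria. Its log2 level was 9.68, 9.55 and 9.03 in the mutant, against 10.40, 10.08 and 10.23 in wild type. The groups did not overlap, and mutant arrays 1 and 2 were also under the wild type range. The difference was -0.82 ± 0.21 (SE, n = 3 arrays a group; 1.76-fold lower, limma adjusted p = 0.0363). Without both mutant arrays numbered 3 it was -0.62 ± 0.11 (limma adjusted p = 0.0101). The call was lost on leaving out single arrays: untreated wild type array 1 (limma adjusted p = 0.121), 2 (0.0693) or 3 (0.0782), wild type Congo Red array 1 (0.0527), and untreated mutant array 2 (0.0716) or 3 (0.127), while the difference stayed between -0.95 and -0.62.

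MRPL44 (YMR225C), encoding mL53, came next. It was at 9.31, 9.38 and 8.74 in the mutant, against 9.73, 10.02 and 9.62 in wild type, again without overlap. Its difference of -0.65 ± 0.19 (SE) did not pass (limma adjusted p = 0.0583), but it did with the sample number as a block (adjusted p = 0.00823). RSM26 (mS42, a relative of superoxide dismutases) was at 9.98, 9.84 and 9.15 in the mutant, against 10.27, 10.18 and 10.15 in wild type, with a difference of -0.54 ± 0.21 (SE; limma adjusted p = 0.137). RSM19, for uS19m of the small subunit head, was at 9.26, 9.32 and 8.60 in the mutant, against 9.62, 9.56 and 9.42 in wild type, at -0.47 ± 0.23 (SE; limma adjusted p = 0.232). For these genes too, each mutant array lay below each wild type array. When both mutant arrays numbered 3 were left out, the differences were -0.44 for MRPL44 (limma adjusted p = 0.0689), -0.29 for RSM26 (0.218) and -0.24 for RSM19 (0.153).

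In all, 1 of 68 members was lower and 0 were higher in the untreated mutant, where 4.92% of all genes tested were lower and 4.9% higher (limma). At an unadjusted p under 0.05, 7 members were lower and 0 higher, against 11.5% and 13.4% of all genes. With the sample number as a block 9 members were lower and 0 higher, against 9.19% and 9.97% of all genes: MRPL11, MRPL17, MRPL20, MRPL23, MRPL24, MRPL31, MRPL44, MRPL49 and RSM26. Of these 9, 8 are large subunit genes, as are 39 of all 68 members, and the median differences of the subunits given below were close. For 18 members (26.5%) the 3 mutant arrays lay below the 3 wild type arrays, against 15.1% of all genes, and for 0 they lay above, against 17.3%. Array 3 of the mutant is part of this count. Both mutant arrays numbered 3 lay below the other 10 for 60 members (88.2%), against 10% of all genes. The separation, block and unadjusted counts are given with all arrays only. The median difference was -0.21 over the members, -0.23 for the large subunit and -0.21 for the small subunit, beside 0.02 for all genes, and 61 of 68 differences were negative. Without both mutant arrays numbered 3 the median over the members was -0.04 and 39 of 68 differences were negative. MRPL31 was then the 1 member lower and 0 were higher, against 3.93% and 3.63% of all genes. That setting keeps the wild type arrays numbered 3. Without all 4 arrays numbered 3, a setting chosen after seeing the data, the median was -0.08, beside 0.03 for all genes. In that setting 49 of 68 differences were negative.

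A few members stood above wild type without passing. MRP20 encodes uL23m, which lies at the exit of the peptide tunnel. Its levels were 9.55, 9.49 and 9.07 in the mutant, against 9.01, 8.90 and 9.12 in wild type. Mutant arrays 1 and 2 lay above all wild type arrays and array 3 lay among them. The difference was 0.36 ± 0.21 (SE; limma adjusted p = 0.322), and 0.51 ± 0.15 without both mutant arrays numbered 3 (adjusted p = 0.0835). MRPL33 (uL30m) was at 10.32, 10.07 and 9.68 in the mutant, against 10.00, 9.88 and 9.61 in wild type, and the groups overlapped (0.19 ± 0.17, SE; limma adjusted p = 0.538). Its difference was 0.37 without both mutant arrays numbered 3 (adjusted p = 0.2).

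**Figure D4:**
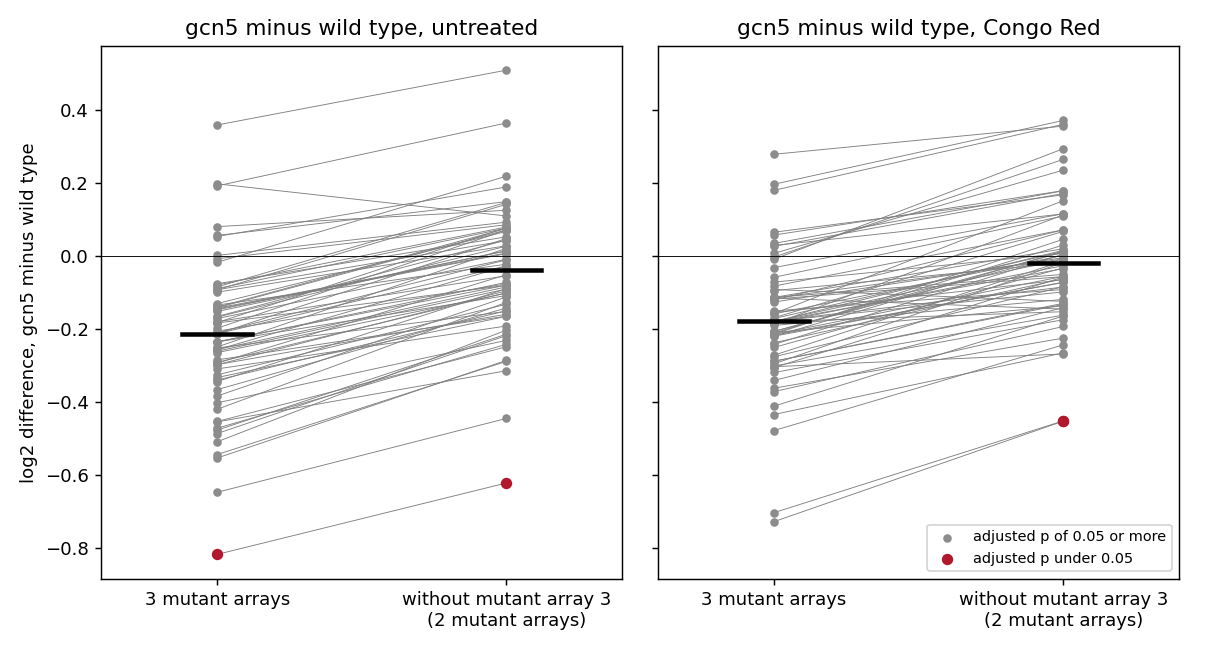
Log2 difference of the gcn5 mutant from wild type (vertical axis) for each of the 68 members, untreated in the left panel and with Congo Red in the right, with all 3 mutant arrays and without array 3. Lines join 1 gene, black bars are medians, and red points are members past the threshold: the medians move to -0.04 and -0.02 without array 3, MRPL31 is red at both settings in the left panel, and the red mark at the right is MRPL31 and RSM19 lying on each other at -0.45.

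The strains were also compared in Congo Red. The lowest differences were those of RSM19 and MRPL31, and neither passed with all arrays. RSM19 (YNR037C) was at 9.40, 9.33 and 8.54 in the mutant with Congo Red, against 9.77, 9.82 and 9.86 in wild type with Congo Red. The groups did not overlap, and the wild type arrays were within 0.1 log2 units of each other. The difference was -0.73 ± 0.23 (SE; 1.66-fold lower, limma adjusted p = 0.0687, and up to 0.171 on leaving out single arrays). Without both mutant arrays numbered 3 it was smaller and passed, at -0.45 ± 0.09 (adjusted p = 0.0135), with those outlying values out of the spread. MRPL31 was at 9.70, 9.79 and 8.99 in the mutant with Congo Red, against 10.14, 10.29 and 10.17 in wild type with Congo Red. These groups did not overlap either. Its difference was -0.70 ± 0.21 (SE; limma adjusted p = 0.0603), and -0.45 ± 0.11 without both mutant arrays numbered 3 (adjusted p = 0.031). MRPL44 followed at -0.43 ± 0.19 (SE; limma adjusted p = 0.183), with 9.48, 9.26 and 8.86 in the mutant, against 9.65, 9.69 and 9.56 in wild type. It was -0.26 without both mutant arrays numbered 3 (adjusted p = 0.224).

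Of the 68 members 0 were lower and 0 higher in the mutant with Congo Red, against 6.4% and 4.57% of all genes tested (limma). At an unadjusted p under 0.05, 4 members were lower and 0 higher, against 13.1% and 13% of all genes. For 11 members (16.2%) each mutant array was below each wild type array, near the 14.4% of all genes, and for 0 members each was above, against 14.6% of all genes. The median difference was -0.18 over the members and in each subunit, beside -0.00 for all genes, and 59 of 68 differences were negative. Without both mutant arrays numbered 3 the median was -0.02, 39 of 68 were negative and 2 members were lower, RSM19 and MRPL31, and 0 higher, against 7.5% and 3.99% of all genes. Without all 4 arrays numbered 3 the median was -0.05, beside -0.03 for all genes, and 43 of 68 were negative. The highest difference was that of MRPL33, with 10.25, 10.00 and 9.89 in the mutant, against 9.83, 9.90 and 9.56 in wild type (0.28 ± 0.17, SE; limma adjusted p = 0.34), and it was 0.36 without both mutant arrays numbered 3 (adjusted p = 0.18).

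**Figure D5:**
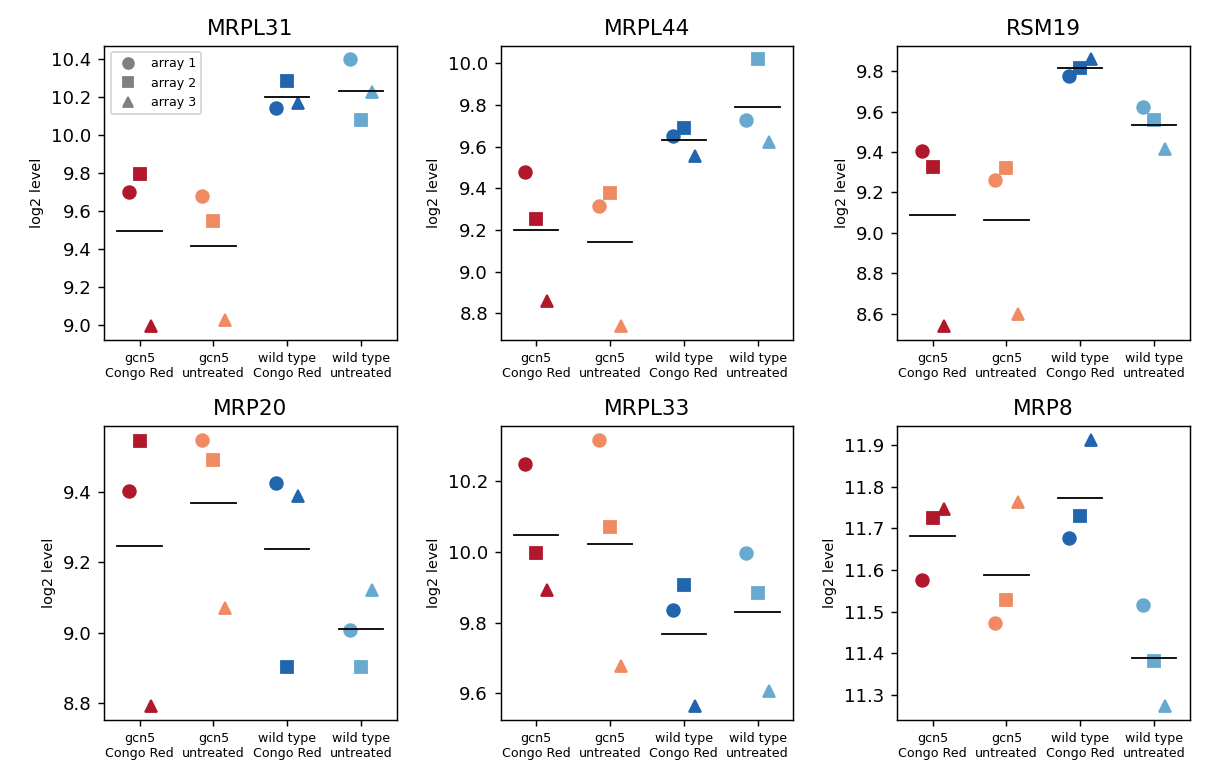
Log2 level on each array (vertical axis, scaled for each gene) of MRPL31, MRPL44, RSM19, MRP20, MRPL33 and MRP8 in the 4 groups, with means as lines and the array number as the symbol. For MRPL31 the 6 mutant values are the lowest 6, and for MRP8 the triangles of array 3 are not the low ones in the mutant.

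The response to Congo Red was small in wild type. MRP8 (YKL142W), the member that is no ribosomal protein, had the largest rise in level and missed the threshold. It was at 11.68, 11.73 and 11.91 with Congo Red, against 11.51, 11.38 and 11.27 untreated, and every treated array lay above every untreated one. The difference was 0.38 ± 0.11 (SE; 1.31-fold, limma adjusted p = 0.0528, and up to 0.185 on leaving out single arrays). It passed with the culture as a block (adjusted p = 0.0231) and without both mutant arrays numbered 3 (adjusted p = 0.0331). Leaving out mutant arrays changes the shared estimate of the spread, not this wild type difference. Among ribosomal members the lowest difference was that of MRPS17 (uS17m), at 9.87, 9.56 and 9.37 with Congo Red, against 10.19, 10.20 and 9.75 untreated. It was lower in each of the 3 cultures, by 0.32, 0.64 and 0.38 units (-0.32, -0.64 and -0.38), though the groups overlapped. The difference of -0.44 ± 0.29 (SE) passed with the culture as a block (adjusted p = 0.012) and not without it (limma adjusted p = 0.448).

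Of the 68 members 0 were higher and 0 lower with Congo Red in wild type, where 5.33% of all genes tested were higher and 3.91% lower (limma). At an unadjusted p under 0.05, 1 member was higher and 0 lower, against 11.2% and 10.3% of all genes. Without both mutant arrays numbered 3, 1 was higher, MRP8, and 0 lower, against 6.96% and 5.61% of all genes. With the culture as a block 2 were higher, MRP8 and RSM19, against 12.3% of all genes. In that fit 4 were lower, MRPS17, MRPL50, MRPS8 and RSM26, against 11.5% of all genes. RSM19 was at 9.77, 9.82 and 9.86 with Congo Red, against 9.62, 9.56 and 9.42 untreated, higher in each culture (0.28 ± 0.23, SE; adjusted p = 0.0368 with the block and limma adjusted p = 0.563 without it). The treated and untreated groups did not overlap for 4 members that were higher (13.8% of all genes) and 13 that were lower (19.1% of members and 14.8% of all genes). The 13 lower ones were 7 large subunit genes, among them MRPL37, MRPL49 (bL21m) and IMG2 (mL49), and 6 small subunit genes, among them MRPS5 (uS5m) and MRP1 (mS43). The median difference was -0.08 over the members, beside -0.02 for all genes, and no difference exceeded 0.44 log2 units in size.

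In the gcn5 mutant no response of these genes to Congo Red was detectable with 3 arrays a group. All differences lay between -0.26 (RSM25, mS23) and 0.15 (MRPL22, uL22m), 0 of 68 members were higher and 0 lower (limma), and the smallest adjusted p was 0.83. Over all genes tested 1.09% were higher and 0.0748% lower. With the culture as a block 0 members were called, against 2.81% of all genes higher and 1.16% lower. At an unadjusted p under 0.05 there were 0 members, against 4.25% and 3.85% of all genes. For none of the 68 did the treated and untreated groups separate, against 5.99% and 7.95% of all genes. RSM25 was at 8.27, 7.99 and 7.72 with Congo Red, against 8.36, 8.46 and 7.92 untreated, and MRP8 at 11.58, 11.72 and 11.75, against 11.47, 11.53 and 11.76. The median difference was -0.02, and -0.06 without both mutant arrays numbered 3, beside -0.03 and -0.06 for all genes. Over the members the 95% confidence intervals reached no lower than -0.77 and no higher than 0.65. They come from the fit without a block, so the spread between cultures widens them. Since array 3 was low in the treated and in the untreated mutant alike, the median difference within the third mutant culture was 0.01, beside -0.04 in each of the other two.

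In all 6 cultures 4 members (5.88%) were higher with Congo Red and 7 (10.3%) lower, both below the shares of all genes tested, 11.2% and 13.9%. MRP51 (bS1m, which helps translate the COX1 and COX2 messages), MRPL27 (mL41), MRPL9 (uL3m) and MRPS18 (uS11m) were the higher ones, and MRP1, MRP13, MRPL7, MRPL11, MRPL17, MRPL20 and MRPS8 the lower ones. For MRPL11 (uL10m of the stalk) the differences were -0.16, -0.17 and -0.23 in the mutant and -0.14, -0.18 and -0.19 in wild type. None of these 11 passed in the fit without a block, and MRPS8 in wild type was the 1 that passed with it. Whether Congo Red acted differently in the strains was tested by the interaction. Of the members 0 passed in either direction (limma), with a smallest adjusted p of 0.951, where 0% of all genes tested were higher and 0.0561% lower. The interaction was -0.29 ± 0.16 (SE) for MRP8, -0.35 ± 0.30 for MRP20 and 0.38 ± 0.41 for MRPS17, with a median of 0.03 over the members and -0.02 over all genes, and 0 members had an unadjusted p under 0.05 in either direction, against 2.21% of all genes higher and 3.59% lower.

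The rest of the mitochondrial translation apparatus gave few calls. Of the 10 mitochondrial ribosomal protein genes under other symbols 0 passed in any of the 5 comparisons. With Congo Red in wild type 5.33% of all genes tested were higher and 3.91% lower (limma). Of 20 translational activator genes 1 rose there and 0 fell: ATP22, needed to translate the message of ATP synthase subunit 6. It was at 8.75, 9.01 and 8.90 with Congo Red, against 7.50, 7.93 and 8.05 untreated, without overlap (1.06 ± 0.14, SE; limma adjusted p = 0.000949, at most 0.0056 on leaving out any 1 array). In the mutant it was at 8.27, 8.38 and 8.51, against 8.07, 8.20 and 8.13, a difference that did not pass. The interaction of ATP22 was -0.81 ± 0.20 (SE; limma adjusted p = 0.345, and 0.0399 with the culture as a block). Of 13 tRNA synthetase and 11 translation factor genes 0 passed with Congo Red in either strain in the fit without a block. With the culture as a block 2 synthetase genes were higher in wild type, SLM5 (asparaginyl-tRNA synthetase, 0.61, adjusted p = 0.00154 with the block and 0.0627 without it, and past the threshold without both mutant arrays numbered 3) and MSF1 (0.40, adjusted p = 0.024 with the block and 0.306 without it).

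Between the strains 2 of 13 synthetase genes were lower in the mutant in Congo Red and 0 higher, where 6.4% of all genes were lower and 4.57% higher. All 13 differences were negative, with a median of -0.32, and of -0.18 without both mutant arrays numbered 3, on which 9 of the 13 had their lowest values. MSF1, the mitochondrial phenylalanyl-tRNA synthetase gene, was at 7.15, 7.38 and 6.84 in the mutant with Congo Red, against 8.16, 8.25 and 8.06 in wild type. The groups were well apart, and the difference was -1.03 ± 0.21 (SE; limma adjusted p = 0.00898, at most 0.0372 on leaving out any 1 array and 0.00727 without both mutant arrays numbered 3). Untreated, 1 of 13 was lower and 0 higher, where 4.92% of all genes were lower and 4.9% higher. It was again MSF1, at 7.12, 7.12 and 6.45 in the mutant, against 7.54, 8.09 and 7.65 in wild type (-0.86 ± 0.21, SE; limma adjusted p = 0.0246, and 0.0397 without both mutant arrays numbered 3). That call was lost without the untreated mutant array 3 (adjusted p = 0.0757) or wild type array 2 (0.0944). The other synthetase gene called in Congo Red was DIA4, for seryl-tRNA synthetase, at 7.08, 6.93 and 6.83 in the mutant, against 7.78, 7.78 and 7.43 in wild type (-0.72 ± 0.18, SE; limma adjusted p = 0.0247, and 0.0211 without both mutant arrays numbered 3). It was lost without mutant Congo Red array 2 (adjusted p = 0.0624) or 3 (0.0716), or wild type Congo Red array 1 (0.0878) or 2 (0.0864).

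In Congo Red 6.4% of all genes tested were lower in the mutant and 4.57% higher (limma). Of 11 genes of mitochondrial DNA and RNA upkeep 1 was lower in the mutant with Congo Red and 0 higher: HMI1, a DNA helicase gene needed to keep mitochondrial DNA. It was at 6.78, 6.63 and 6.93 in the mutant, against 7.52, 7.56 and 7.15 in wild type. The groups did not overlap, and array 3 was here the highest of the mutant (-0.63 ± 0.13, SE; limma adjusted p = 0.00936, at most 0.0441 on leaving out any 1 array and 0.0119 without both mutant arrays numbered 3). Of 10 genes of mitochondrial ribosome assembly and rRNA modification 1 was higher and 1 lower in the untreated mutant, against 4.9% and 4.92% of all genes. The higher one was AFG3, for a subunit of the inner membrane protease that matures the member MRPL32 (bL32m). It was at 10.09, 10.18 and 10.15 in the mutant, against 9.66, 9.71 and 9.83 in wild type (0.40 ± 0.09, SE; limma adjusted p = 0.0171, and 0.0459 without both mutant arrays numbered 3). The AFG3 call was lost without untreated mutant array 2 (adjusted p = 0.0664) or 3 (0.0563), or wild type array 1 (0.0651) or 2 (0.058).

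The remaining calls of the mitochondrial lists between the strains were each lost on leaving out single arrays. For comparison, 4.92% of all genes tested were lower and 4.9% higher in the untreated mutant (limma). In Congo Red it was 6.4% lower and 4.57% higher. In the untreated mutant MSS116, an RNA helicase gene of intron splicing, was lower (-0.52 ± 0.14, SE; limma adjusted p = 0.0355), a call lost on leaving out any of 7 arrays, with an adjusted p of up to 0.121. Of the 11 upkeep genes 1 was higher and 1 lower untreated: ABF2, for the main packaging protein of mitochondrial DNA (0.41 ± 0.10, SE; limma adjusted p = 0.0301, lost without any of 5 arrays, up to 0.111), and HMI1 (-0.47 ± 0.13, SE; limma adjusted p = 0.039, lost without any of 7, up to 0.131). Of 37 respiratory chain genes 1 was higher and 1 lower in the untreated mutant, and 1 was higher and 0 lower in Congo Red. The higher one was ATP14, for a subunit of the ATP synthase, in both conditions, at 0.49 ± 0.12 (SE; limma adjusted p = 0.0305) untreated and 0.46 ± 0.12 (SE; limma adjusted p = 0.0372) in Congo Red, lost without any of 4 and 7 arrays. COX9, for a subunit of cytochrome c oxidase, was the lower one (-0.68 ± 0.19, SE; limma adjusted p = 0.0467, lost without any of 9 arrays, up to 0.162). In Congo Red the translation factor gene MEF2 and the activator gene ATP22 were the 1 lower of 11 and the 1 lower of 20, with 0 higher. Their differences were -0.66 ± 0.19 and -0.50 ± 0.14 (SE; limma adjusted p = 0.0494 and 0.0416), lost without any of 11 and 9 arrays. Without both mutant arrays numbered 3 the difference of MEF2 was -0.41 (adjusted p = 0.0664) and that of ATP22 -0.56 (0.0502). In that setting MSS116 was at -0.38 (adjusted p = 0.105), ABF2 at 0.40 (0.0581), HMI1 untreated at -0.45 (0.0859) and COX9 at -0.50 (0.0985), all no longer past the threshold, and ATP14 passed at 0.59 untreated (0.0137) and 0.54 in Congo Red (0.0163).

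Cytosolic ribosomes are built by separate genes. Of 54 genes of cytosolic ribosome biogenesis 28 were lower and 0 higher with Congo Red in wild type, with a median of -0.48, where 3.91% of all genes were lower and 5.33% higher. The smallest p-values were those of BRX1 (-0.59), RRP8 (-0.81), MAK5 (-0.71) and DBP10 (-0.53), with limma adjusted p of 0.00139 to 0.00385. With Congo Red in the mutant 0 of 54 passed in either direction (median -0.19), where 0.0748% of all genes were lower and 1.09% higher. Of the 54 differences there 53 were negative. For the interaction 0 of 54 passed in either direction (median 0.27), with or without the culture as a block. Over all genes 0% were higher and 0.0561% lower in the interaction (limma). In Congo Red 14 of 54 were higher in the mutant than in wild type and 0 lower (median 0.29), against 4.57% and 6.4% of all genes. These were led by RPF2 (0.58), BRX1 (0.47), NOP15 (0.60) and RPF1 (0.57), with limma adjusted p of 0.00281 to 0.0115. Without both mutant arrays numbered 3, 8 were higher and 0 lower, against 3.99% and 7.5% of all genes. With Congo Red in wild type, of 127 cytosolic ribosomal protein genes 1 was lower, RPL27B, and 0 higher, with a median of -0.06. In the same comparison 1 of the 11 upkeep genes was lower, NUC1, a mitochondrial nuclease gene, and 0 were higher. The differences of NUC1 and RPL27B were -0.34 ± 0.09 and -0.28 ± 0.08 (SE; limma adjusted p = 0.037 and 0.049), lost without any of 8 and 11 arrays. Between the strains in Congo Red 1 of the 127 was higher, RPS22B, and 0 lower (0.37 ± 0.10, SE; limma adjusted p = 0.0383, lost without any of 9 arrays and at 0.0991 without both mutant arrays numbered 3).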

How the data were processed

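The deposited table gives 1 log2 expression level per probe set and array. Per the submitters' processing notes GCRMA was used, a method that corrects background by probe sequence, applies quantile normalization and combines probes. Which release was not given in the sources used here. A shift of all transcripts would therefore not be seen. Values between 2.45 and 14.34 fit a log2 scale. No build is named for the array, so no coordinates are given. Groups and numbers came from the sample titles.

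The table held 5716 probe sets, 5498 of them with 1 gene symbol in the platform annotation, 0 with several and 218 without any. The RefSeq gene table updated 12 symbols. Where a gene had several probe sets (47 genes), the highest mean decided. A gene was tested if its log2 level exceeded 4 on 3 or more of the 12 arrays, which left 5345 genes and all 68 members. The mitochondrially encoded genes and MRPL34 were not analysed here.

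All 12 arrays were fitted together with limma 3.58.1 in R 4.3.3 as 4 group means (8 residual degrees of freedom). This fit treats the arrays as independent, although the treated and untreated portions of a culture were correlated. That is a limit on its p-values. The strain comparisons untreated and in Congo Red share their cultures, so they are not separate evidence. Moderated p-values of the 5 contrasts were adjusted by Benjamini-Hochberg over the 5345 genes, and 0.05 was the threshold. The fit was tested on simulated arrays with independent noise and some genes changed by known amounts. The simulation held no shift shared by the genes of an array or culture, so it does not cover such shifts. Members and lists were chosen with earlier results of these data known. By rule the text names members past the threshold or nearest to it, the 5 highest and lowest differences, the 5 members whose group means differed most, MRP8, GCN5 and called genes of the other lists. Members named for the arrays numbered 3 or for their direction in every culture were chosen after their values were seen.

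To see whether numbers pair arrays, deviations from group means were correlated. Between treated and untreated arrays it was 0.839, 0.573 and 0.795 in the mutant and 0.531, 0.745 and 0.67 in wild type, and the labels describe divided cultures, so the culture was used as a block in a second fit. Between the untreated strains it was 0.533, 0.389 and 0.443 over all genes, and 0.539, 0.11 and 0.178 over the members. In Congo Red it was 0.335, -0.084 and 0.114, so there the number does not pair the strains. Alternatives covered the filter, the floor, scaling, probe set choice, the arrays fitted, the variance model, the block and left-out arrays.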

Additional observations from a re-analysis of the deposited data

How the results depend on the processing

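The number of arrays limits the precision, with a median SE of 0.18 log2 units over the members, and differences as large as -0.73 (RSM19 in Congo Red) did not pass. With the replicate block 2 members were higher and 4 lower with Congo Red in wild type, 9 were lower between the untreated strains and 6 between the strains in Congo Red, where equal numbers do not pair the arrays (MRPL11, MRPL20, MRPL31, MRPL44, RSM19 and RSM25, against 10.4% of all genes). The block brought all genes past the threshold to 1272 for Congo Red in wild type (494 without it), 212 in the mutant (62), 1024 between the untreated strains (525), 1048 in Congo Red (586) and 30 for the interaction (3). It changed no other member's call. With Congo Red in wild type, 1 member was higher, MRP8, under the stricter filter, under a repeated quantile normalization, with the trended and robust variance model and without both mutant arrays numbered 3. With the trended and robust model 2 members were lower between the untreated strains and 1 in Congo Red, and 6 genes passed the interaction. Without both mutant arrays numbered 3, 39 genes passed for Congo Red in the mutant and 2 members were lower between the strains in Congo Red. Without all 4 arrays numbered 3, an alternative chosen after seeing the data, 2 members were lower untreated (MRPL31 and MRPL44), 1 was lower in Congo Red (RSM19) and 13 genes passed the interaction. Fitting only the 6 arrays of a comparison gave 15 genes for Congo Red in the mutant and 316 between the strains in Congo Red.

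On leaving out single arrays, members higher with Congo Red in wild type ranged from 0 to 1, members lower between the untreated strains from 0 to 2 and in Congo Red from 0 to 2. All genes past the threshold ranged from 260 to 572 for Congo Red in wild type, from 17 to 59 in the mutant, from 265 to 615 between the untreated strains, from 350 to 616 in Congo Red and from 3 to 5 for the interaction. The median over the members ranged from -0.13 to -0.03 for Congo Red in wild type, from -0.21 to 0.15 in the mutant, from -0.33 to -0.04 between the untreated strains, from -0.28 to -0.02 in Congo Red and from -0.15 to 0.19 for the interaction. Without the mutant Congo Red array numbered 3 the Congo Red difference in the mutant turned to 0.031 for MRPL20 (limma adjusted p = 0.967) and to 0.0054 for IMG1 (adjusted p = 0.991), with ranges over single arrays of -0.3828 to 0.031 and -0.2661 to 0.0054. Among named genes 1427 results kept direction and side of the threshold, 193 lost a call, 30 gained one and 2 changed sign. Causes beyond the arrays left out were not tested.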
